A study of Homo sapiens with 6 samples.

Results

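The epidermal growth factor (EGF) family comprises small signalling proteins made as membrane-bound precursors that carry an EGF-like domain. Its members were taken as the 8 ligand genes AREG, EREG, HBEGF, TGFA, BTC, EGF, EPGN and NRG1, matched by gene identifier to their symbols among 62700 genes in a table of read counts. The table came from 6 RNA sequencing libraries of cells labelled MKN-45, a human gastric adenocarcinoma line. Per the labels, 3 libraries are controls and the other 3 are an NNMT knockdown, each a separate biological replicate, with cells harvested 48 h after transfection. The labels name the control both as untouched cells and as cells given a negative-control RNA, and they name the transfected RNA both as shRNA and as siRNA.

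The ligands are cut from the cell surface by ADAM family proteases, and the freed EGF-like domain binds receptors of the ERBB family. AREG, EGF, TGFA and EPGN bind EGFR, while HBEGF, BTC and EREG bind both EGFR and ERBB4, and NRG1 binds ERBB3 and ERBB4. Bound receptors pair with each other or with ERBB2 and activate the RAS, RAF, MEK and ERK cascade, whose target genes include inhibitors of the same pathway. In stomach epithelium, EGFR ligands are known for promoting proliferation and repair, and carcinoma cells often make ligand and receptor together.

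Library totals lay between 40558680 and 56067484 reads. Mates of a read pair were counted singly, so a count of 2 often stands for 1 fragment. NNMT, the targeted gene, had 0, 8 and 12 reads in control replicates 1, 2 and 3 and 2, 8 and 14 reads in replicates 1, 2 and 3 labelled knockdown, and its log2 fold change was 0.48 (SE 0.929, adjusted p = 0.999 by the quasi-likelihood method of edgeR). NNMT did not pass the filter on low counts and was added to the filtered genes in a separate fit. No lowering of NNMT was detected at this depth, so the group is called "labelled knockdown" throughout. Of 12 markers of gastric and intestinal epithelium, 8 lay below 1 CPM (a gene's reads scaled to the library total) in every library, and GKN1, CDX1 and CDX2 had 0 reads. Of the other markers, 0 of 5 general epithelial, 2 of 7 mesenchymal, 2 of 4 endothelial and 4 of 5 leukocyte genes lay below 1 CPM in every library. Summed levels of the gastric and intestinal markers ran from 37.2 to 102 CPM in control and from 42.6 to 103 CPM in labelled libraries. General epithelial markers summed to 1297 to 1318 CPM in control and 1262 to 1596 CPM in labelled libraries, and mesenchymal markers to 1138 to 1227 and 1187 to 1334 CPM. Endothelial markers summed to 152 to 270 CPM in control and 125 to 239 CPM in labelled libraries, and leukocyte markers to 0.785 to 1.35 and 0.483 to 0.838 CPM. Single genes gave most of the larger sums, over the 6 libraries: KRT19 at 898 to 1261 CPM, VIM at 701 to 990 CPM and KDR at 107 to 243 CPM. PDGFRB and LUM of the mesenchymal set, and VWF and CDH5 of the endothelial set, were the genes below 1 CPM throughout. A high sum thus does not show that the whole set was expressed. Most gastric and intestinal markers were near 0, but MUC6 measured 25.7 to 84.1 CPM and MUC5AC 3.67 to 42.5 CPM. TFF1 measured 1.63 to 8.36 CPM and TFF2 0.553 to 3.5 CPM over the 6 libraries. Among the pairs of libraries, replicate 3 of the 2 groups differed least from each other, with a chi-square per gene of 11.97, although this exceeds sampling noise. In bulk RNA, fewer cells making a transcript and less transcript per cell cannot be told apart.

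The genome places 5 of the ligand genes on chromosome 4, and 4 of them stand close together. On hg38, EPGN (chromosome 4, 74308470 to 74316789), EREG (74365145 to 74388749) and AREG (74445136 to 74455005) lie on the plus strand, and BTC (74744759 to 74794523) lies on the minus strand. This cluster spans 486 kb. The gaps within it are 48.4 kb between EPGN and EREG, 56.4 kb between EREG and AREG, and 290 kb between AREG and BTC. EGF (109912883 to 110013766, plus strand) lies 35118 kb beyond BTC on the same chromosome. HBEGF lies on chromosome 5 (140332843 to 140346603, minus strand) and TGFA on chromosome 2 (70447284 to 70554193, minus strand). No gene in the table shares exon bases with a ligand gene other than ENSG00000286131, which overlaps NRG1 and had 0 reads.

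Promoter sequences are shown for AREG and HBEGF because these genes gave most of the ligand RNA. RefSeq windows of GRCh38.p14 were searched for 7 of the 8 members, with 2 windows for TGFA. NRG1 was left out of this search. The sequences below are the 250 bases before the annotated start, 5′ to 3′ on the gene's strand, and capitals mark motif matches on either strand. The motifs searched were the cyclic AMP response element or CRE (TGACGTCA), the binding motif of the AP-1 factors (TGANTCA), the core promoter element called the TATA box (TATAAA) and the GC box bound by SP factors (GGGCGG). In the HBEGF window a pair of GC box matches overlaps by a base.
AREG, chr4:74444886-74445135, plus strand: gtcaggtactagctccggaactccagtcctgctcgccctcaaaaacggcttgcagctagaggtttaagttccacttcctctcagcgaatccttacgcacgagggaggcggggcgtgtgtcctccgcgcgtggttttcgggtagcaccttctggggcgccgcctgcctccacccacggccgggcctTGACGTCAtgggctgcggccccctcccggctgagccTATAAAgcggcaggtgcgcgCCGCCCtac
HBEGF, chr5:140346604-140346853, minus strand: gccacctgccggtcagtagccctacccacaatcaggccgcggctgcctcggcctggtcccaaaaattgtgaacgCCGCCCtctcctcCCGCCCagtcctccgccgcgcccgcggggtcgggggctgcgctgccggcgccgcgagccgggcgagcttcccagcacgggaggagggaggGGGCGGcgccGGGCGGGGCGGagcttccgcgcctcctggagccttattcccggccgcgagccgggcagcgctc

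The windows of the abundant pair differ in their letters. AREG held the full CRE, starting 65 bases before the start, a TATA box starting 29 bases before it and 1 GC box. HBEGF held 5 GC boxes and neither a TATA box nor a CRE. Over all 35116 RefSeq windows of this length, 1.65% held the CRE, 6.57% the AP-1 motif, 10.7% TATAAA and 42.6% the GC box. EGF held an AP-1 match starting 17 bases before its start, 1 TGFA window held 3 GC boxes, and the BTC window held none of the 4 motifs.

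TATAAA was found in 3 of the 7 members searched, and these are the plus-strand genes of the cluster, EPGN, EREG and AREG. To compare them, 30 bases around each match are given with the motif in capitals.
EPGN, chr4:74308429-74308458: cgcttcatgaaaTATAAAtgcaacaaagac
EREG, chr4:74365101-74365130: ggggctccctagTATAAAgttcgcagcacc
AREG, chr4:74445095-74445124: cccggctgagccTATAAAgcggcaggtgcg
The motif starts 29, 32 and 29 bases before the annotated start in EPGN, EREG and AREG. A match is a description of the letters and says nothing of whether a factor binds there. The 3 genes share this letter pattern and their position, yet their RNA levels lay far apart, as the levels per length show.

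AREG and HBEGF were the most abundant ligand transcripts, and the rest of the family was low. Levels between genes were compared as TPM, a per-length scale computed here from reads per kilobase of merged exons. AREG averaged 88.9 ± 29.8 TPM and HBEGF 69.3 ± 8.95 TPM over the 6 libraries (SD, n = 6). BTC averaged 11.9 ± 4.25 TPM, EPGN 3.32 ± 1.39, TGFA 2.21 ± 0.768, EGF 1.11 ± 0.576 and EREG 0.89 ± 0.146 TPM. NRG1 had 10 reads in replicate 1 labelled knockdown and 0 in the other libraries, where 0 reads allow up to 0.0535 to 0.0721 CPM in control and 0.0661 to 0.069 CPM in labelled replicates 2 and 3. These limits cover counting error only and are too low where mates are counted singly.

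The order held in part. AREG lay above HBEGF in 4 of 6 libraries with overlapping ranges, so over all 6 these neighbours do not differ beyond their spread. In the control libraries alone, AREG (97.1 to 118 TPM) lay above HBEGF (57.6 to 68.8 TPM) with no overlap. The exceptions were labelled replicates 1 and 2. HBEGF lay above BTC, and BTC above EPGN, in 6 of 6 libraries with no overlap of their ranges. EPGN and TGFA overlapped (EPGN higher in 5 of 6 libraries), as did TGFA and EGF (TGFA higher in 6 of 6) and EGF and EREG (EGF higher in 4 of 6). EREG lay above NRG1 in 6 of 6 libraries with no overlap. AREG ranged from 40.6 to 118 TPM, while HBEGF ranged from 57.6 to 84.4 TPM, so AREG had the wider range. Merged exons are longer than most single transcripts, so TPM is understated most for genes with many exon variants.

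**Figure D1:**
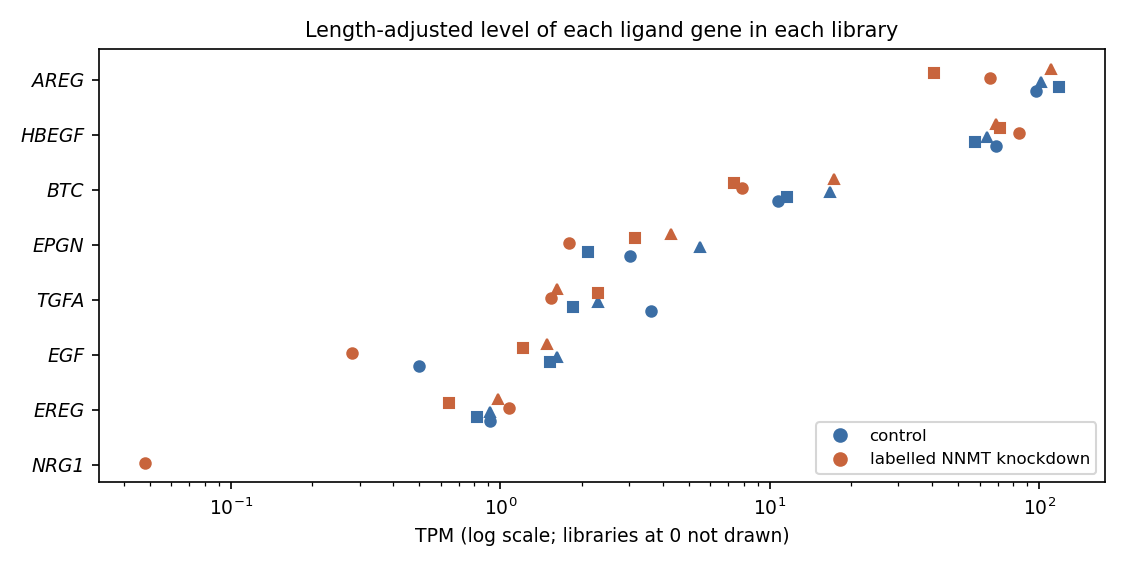
Level of each ligand gene per library in TPM, on a log axis, with 3 control libraries in blue and 3 labelled NNMT knockdown in orange (circle, square and triangle for replicates 1, 2 and 3); libraries at 0 are not drawn. AREG and HBEGF overlap at the top, HBEGF, BTC and EPGN stand apart from one another, and NRG1 has a point in 1 library.

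No ligand gene was called different between the groups. Of the 7 ligands that passed the filter on low counts, 0 had an edgeR adjusted p under 0.05, and the background over 20250 tested genes was also 0% (0 genes). Fitted log2 fold changes lay below 0 for 5 ligands and above 0 for 2, with a median of -0.24, against a median of 0.00333 over all tested genes. At an unadjusted p under 0.05 there was 1 ligand, HBEGF, where 4.03% of all tested genes had such a p. DESeq2 and limma-voom also called 0 ligands.

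AREG encodes amphiregulin, an EGFR ligand with a heparin-binding tail. It measured 38.2, 46.6 and 39.4 CPM in control replicates 1, 2 and 3, and 25.9, 15.9 and 44 CPM in replicates 1, 2 and 3 labelled knockdown. Labelled replicates 1 and 2 were below every control library, while labelled replicate 3 lay inside the control range, so the groups overlapped. The means were 41.4 ± 4.56 and 28.6 ± 14.2 CPM (SD, n = 3 each), and the log2 fold change was -0.53 (SE 0.381, 95% interval of the fold 0.355 to 1.35, adjusted p = 0.999, edgeR). Permuting the libraries exactly (two-sided, on log2 CPM) gave p = 0.3, and 3 against 3 cannot go below 0.1. Without labelled replicate 3 the log2 fold change was -0.98 (adjusted p = 0.487), and without labelled replicate 2 it was -0.23 (adjusted p = 0.999).

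HBEGF encodes heparin-binding EGF-like growth factor, whose precursor is also the receptor for diphtheria toxin. It measured 49.4, 41.3 and 45.2 CPM in control replicates 1, 2 and 3, and 60.9, 51.1 and 50.2 CPM in labelled replicates 1, 2 and 3. The groups did not overlap, but the highest control library and the lowest labelled library were only 49.4 and 50.2 CPM. After TMM scaling these were 50.1 and 50.2 CPM. The means were 45.3 ± 4.02 and 54.1 ± 5.94 CPM (SD, n = 3 each), and the fit gave a log2 fold change of 0.26 (SE 0.111, 95% interval of the fold 1.01 to 1.42). By edgeR the unadjusted p was 0.0395 and the adjusted p 0.999. Without labelled replicate 1 the log2 fold change was 0.15. HBEGF was the 1 of 7 tested ligands (14.3%) whose groups did not overlap, where 9.17% of all tested genes did not and 4.29% did not with the labelled libraries higher. A share resting on 1 gene cannot be set apart from these backgrounds.

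The balance between the abundant pair differed among the labelled libraries. The TPM ratio of AREG to HBEGF was 1.41, 2.06 and 1.59 in control replicates 1, 2 and 3, and 0.775, 0.567 and 1.59 in labelled replicates 1, 2 and 3. AREG exceeded HBEGF in all 3 control libraries and in labelled replicate 3, and HBEGF exceeded AREG in labelled replicates 1 and 2. The ratio averaged 1.68 ± 0.333 in control and 0.978 ± 0.542 in labelled libraries (SD, n = 3 each). Labelled replicate 3 lay inside the control range, so the groups overlapped. A two-sided exact permutation of the log2 ratio gave p = 0.3. With 3 against 3 it cannot go below 0.1, so this test cannot decide whether the ratio differs. Together the pair gave 85.9% to 92.2% of the summed ligand TPM in each library. That sum averaged 190 ± 5.05 TPM in control and 165 ± 39.2 TPM in labelled libraries (exact two-sided permutation p = 0.4). The shares of the other ligands, which include BTC at 4.86% to 8.7%, overlapped between the groups.

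**Figure D2:**
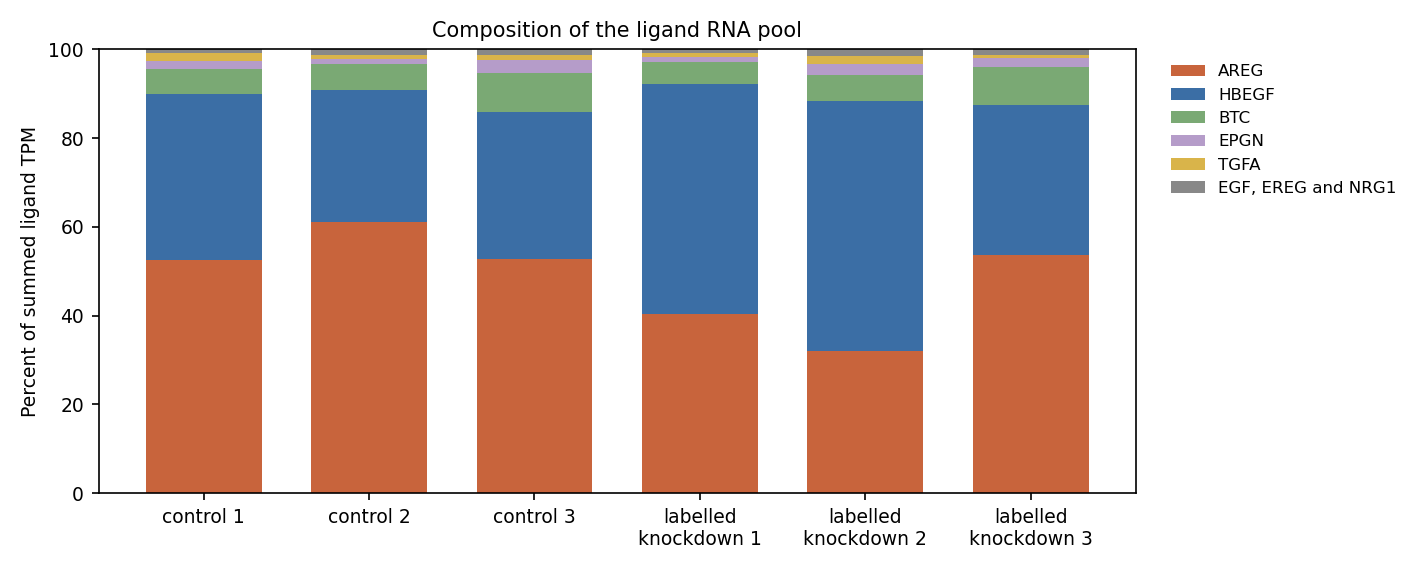
Share of each ligand gene in the summed ligand TPM of each library, in percent, with 1 bar per library. AREG takes 52.6% to 61.1% in control libraries and 40.3%, 32% and 53.8% in replicates 1, 2 and 3 labelled knockdown, with HBEGF filling most of the remainder.

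BTC encodes betacellulin, a ligand of EGFR and ERBB4. It measured 6.8, 7.36 and 10.5 CPM in control replicates 1, 2 and 3 and 5.05, 4.67 and 11.1 CPM in labelled replicates 1, 2 and 3. Replicate 3 was the highest library of each group, and labelled replicates 1 and 2 were below every control library. The log2 fold change was -0.24 (SE 0.344, 95% interval of the fold 0.487 to 1.47, adjusted p = 0.999, edgeR). It was -0.75 without labelled replicate 3 and -0.0156 without labelled replicate 2.

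EPGN encodes epigen, a weakly binding EGFR ligand. It measured 2.4, 1.68 and 4.28 CPM in control and 1.43, 2.49 and 3.45 CPM in labelled replicates 1, 2 and 3, from 58 to 240 reads per library. Replicate 3 was again the highest of each group, and the groups overlapped. The log2 fold change was -0.18 (SE 0.392, 95% interval of the fold 0.478 to 1.63, adjusted p = 0.999, edgeR).

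EREG encodes epiregulin, which binds EGFR and ERBB4 and neighbours AREG on chromosome 4. It measured 1.25, 1.12 and 1.23 CPM in control and 1.48, 0.881 and 1.36 CPM in labelled replicates 1, 2 and 3, from 40 to 69 reads. The labelled libraries stood on both sides of the controls. The log2 fold change was 0.05 (SE 0.303, 95% interval of the fold 0.651 to 1.65). At this depth a change within that interval could not be seen.

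TGFA encodes transforming growth factor alpha, an EGFR ligand without the heparin-binding region of AREG and HBEGF. It measured 4.28, 2.2 and 2.68 CPM in control and 1.82, 2.69 and 1.93 CPM in labelled replicates 1, 2 and 3. Control replicate 1 stood above the other 5 libraries, which overlapped. The log2 fold change was -0.5 (SE 0.289, 95% interval of the fold 0.453 to 1.1, adjusted p = 0.999, edgeR), and it was -0.17 without control replicate 1.

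EGF encodes the founding member of the family, made as a large precursor. It measured 0.914, 2.8 and 2.93 CPM in control and 0.518, 2.2 and 2.76 CPM in labelled replicates 1, 2 and 3. Replicate 1 was the lowest library in both groups, with 38 and 21 reads against 100 to 164 in the other libraries. The log2 fold change was -0.28 (SE 0.629, 95% interval of the fold 0.295 to 2.31), the widest interval of the 7 tested ligands. NRG1 did not pass the filter and got no fold change, since its reads came from 1 library.

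**Figure D3:**
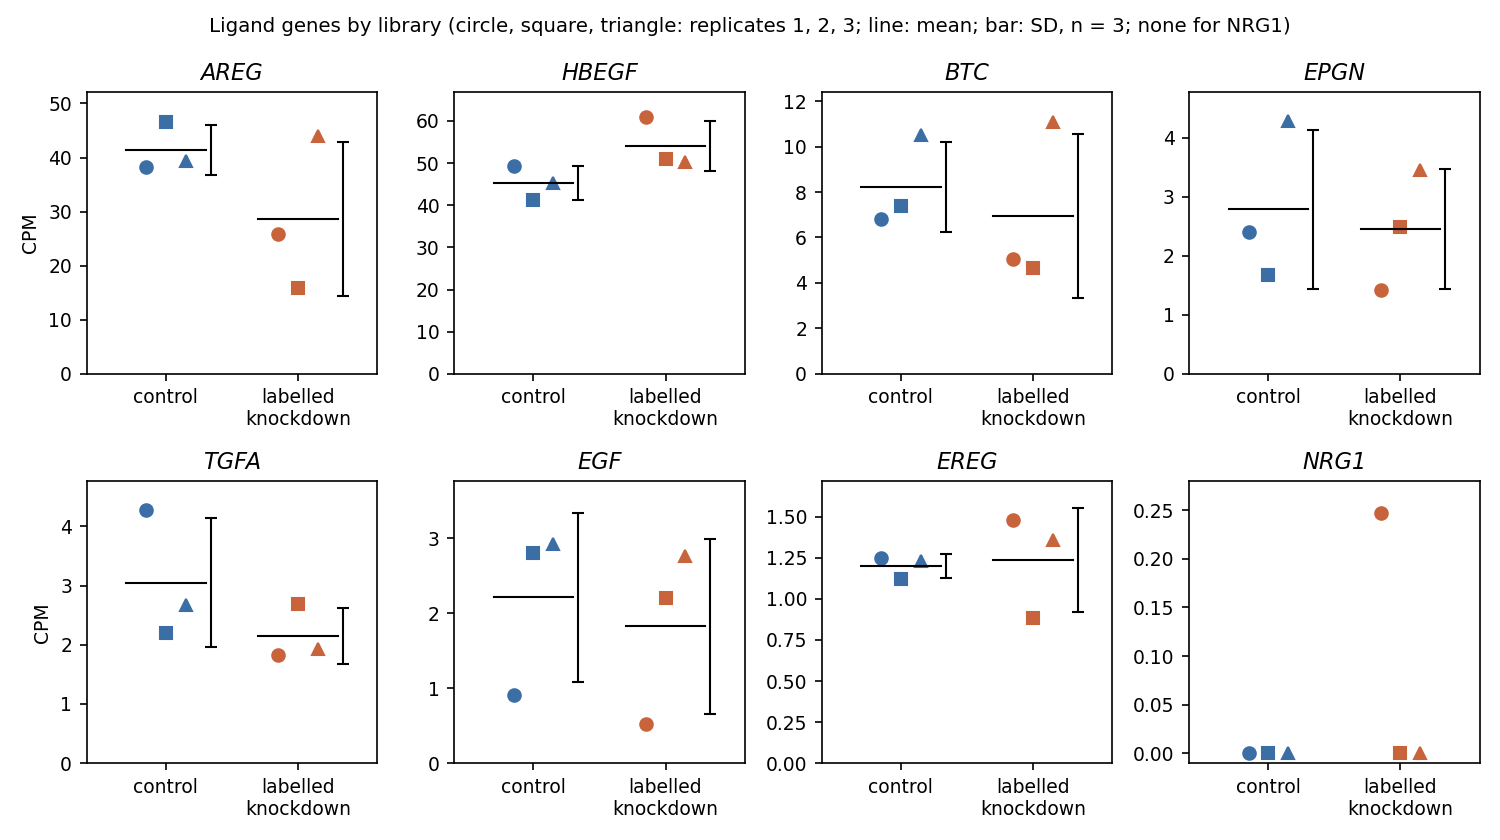
CPM of the 8 ligand genes in each library, with a separate linear axis for each gene, points for replicates 1 to 3, a line at the mean and a bar for the SD (n = 3; not drawn for NRG1). The labelled libraries of HBEGF lie between 50.2 and 60.9 CPM above controls at 41.3 to 49.4 CPM, and in every other panel the groups overlap.

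The ligands differed in how much they varied between libraries of the same group. The pooled SD of log2 CPM within groups was 0.539 for AREG, 0.536 for BTC and 0.16 for HBEGF, against a median of 0.131 over the 11518 genes with a mean of at least 5 CPM. AREG and BTC each varied more than 98.4% of those genes, and HBEGF more than 64.5%. EGF had the largest SD of the ligands at 1.11, followed by EPGN at 0.644, while EREG, with fewer reads than EPGN in most libraries, had 0.305. EGF, EPGN and EREG averaged below 5 CPM, so their background is all tested genes, with a median of 0.21. They varied more than 96.6%, 86.9% and 63.6% of these, in that order. The lowest CPM fell in replicate 1 labelled knockdown for TGFA, EGF and EPGN, and in labelled replicate 2 for AREG, EREG and BTC. HBEGF was lowest in control replicate 2. Labelled replicates 1 and 2 thus each held the lowest value of 3 of the 7 tested ligands (42.9%). Over all tested genes they held the lowest value of 22.3% and 16.4%, in that order. The ligands were measured in the same libraries, so these counts are not independent.

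Genes with the most similar profile over the 6 libraries were found by Pearson r of log2 CPM among genes with a mean of at least 5 CPM. For AREG they included C12orf76 (r = 0.995) and TPM1 (0.983). For HBEGF they were RNF2 (0.997), MPV17 (0.993) and CDCA4 (0.99), and for BTC they were ARMCX3 (0.996), LINC00630 (0.994) and LINC00174 (0.988). No other ligand was among them, but EREG, TGFA, EGF, EPGN and NRG1 averaged below 5 CPM and could not appear. Between pairs of the 7 tested ligands r ran from -0.823 (HBEGF and EGF) to 0.803 (AREG and BTC). In all, 219, 180 and 130 of 11517 genes had an r above 0.9 with AREG, HBEGF and BTC. These r values describe 6 libraries that share their groups and depth, and no test was made.

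The receptor genes showed which of the ligands' partners were transcribed. EGFR averaged 44.1 TPM and ERBB2, the partner without a known ligand, 41 TPM over the 6 libraries. ERBB3, whose kinase is weak and which signals with a partner, averaged 4.85 TPM, and ERBB4 averaged 0.114 TPM. EGFR measured 142, 158 and 173 CPM in control and 170, 204 and 164 CPM in labelled replicates 1, 2 and 3, with overlapping groups and a log2 fold change of 0.19 (SE 0.101). ERBB2 measured 93.2, 101 and 106 CPM in control and 106, 96.2 and 106 CPM in labelled libraries, with a log2 fold change of 0.04 (SE 0.0852). ERBB3 measured 12.1, 14.8 and 20.1 CPM in control and 9.52, 12.2 and 12.7 CPM in labelled libraries. Labelled replicates 2 and 3 both lay above control replicate 1, so the groups overlapped, and the log2 fold change was -0.45 (SE 0.181, unadjusted p = 0.0314 and adjusted p = 0.999, edgeR). ERBB4 had 10 to 26 reads per library. Of these 4 receptor genes, 0 passed the test.

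**Figure D4:**
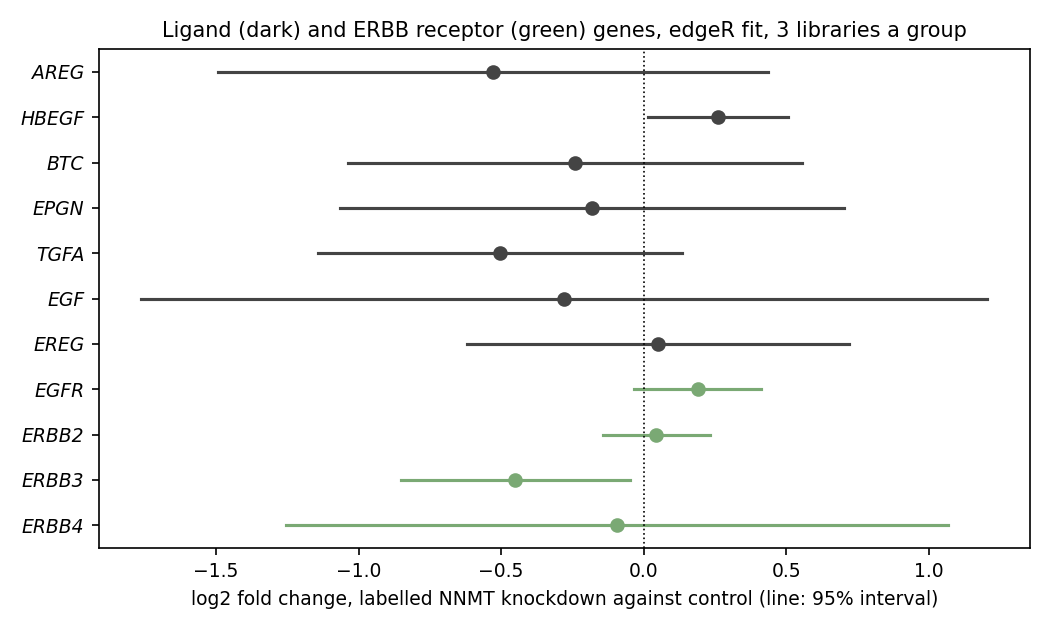
Fitted log2 fold change of labelled NNMT knockdown against control with its 95% interval, for the 7 tested ligand genes (dark) and the 4 ERBB receptor genes (green). The unadjusted intervals of HBEGF and ERBB3 miss 0, the other intervals include it, and no gene passed the adjusted threshold.

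Neuregulin transcripts came mainly from NRG2, a ligand gene of ERBB3 and ERBB4 outside the 8 members. NRG2 averaged 15.9 TPM, more than BTC, while NRG4 averaged 0.774 TPM and NRG3 had 0 reads. NRG2 measured 17, 16.3 and 13.5 CPM in control and 18.8, 23.3 and 16.6 CPM in labelled replicates 1, 2 and 3, with a log2 fold change of 0.33 (SE 0.147, unadjusted p = 0.0459 and adjusted p = 0.999, edgeR). Its groups overlapped, and 0 of the 2 tested neuregulins passed.

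Levels of the genes that process and release the ligands ranged widely, from TIMP3, an inhibitor of ADAM proteases, at 0.155 TPM to CNIH1, a cargo receptor of the secretory pathway, at 183 TPM. RHBDF1, which encodes a trafficking partner of ADAM17, averaged 182 TPM, and its range overlapped that of CNIH1. Of 12 genes for shedding and trafficking, 0 passed in either direction, with 8 fold changes above 0 and a median of 0.06 on the log2 scale. ADAM17, the main protease for AREG, HBEGF and TGFA, measured 68.6 ± 3.69 CPM in control and 60.3 ± 5.46 CPM in labelled libraries (SD, n = 3 each) with overlapping groups, and ADAM10, the main protease for EGF and BTC, measured 66.7 ± 3.78 and 66.7 ± 1.71 CPM. ADAM17, ADAM10, RHBDF1 and TIMP3 were named after their values were seen. ADAM12, which can cut HBEGF, had the lowest p of the list and measured 63.9 ± 9.79 and 79.9 ± 8.45 CPM (log2 fold change 0.32, SE 0.118, adjusted p = 0.999, edgeR).

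Genes that dampen the receptors were led by ERRFI1, which encodes the EGFR inhibitor MIG6. ERRFI1 averaged 1066 TPM, above every ligand and ERBB receptor gene, and measured 1090 ± 84.9 CPM in control and 1048 ± 265 CPM in labelled libraries (SD, n = 3 each). Its lowest library was labelled replicate 2 at 765 CPM, and its highest was labelled replicate 1 at 1292 CPM. Of 11 such genes, 0 passed, with a median log2 fold change of -0.0244. RNF41, a ubiquitin ligase for ERBB3, had the lowest p and measured 46.1 ± 3.14 and 40 ± 1.76 CPM (log2 fold change -0.2, SE 0.0868, adjusted p = 0.999, edgeR).

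Of 17 genes for adaptors and effectors between the receptors and ERK, 0 passed, and their median log2 fold change was -0.0241. GRB2, the adaptor that links receptors to RAS activation, was the most abundant at 209 TPM. HRAS, a RAS gene, had the lowest p and measured 22.9 ± 1.49 CPM in control and 26.5 ± 2.5 CPM in labelled libraries (SD, n = 3 each), with a log2 fold change of 0.21 (SE 0.104, adjusted p = 0.999, edgeR).

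Of 19 genes that respond to ERK or feed back on it, 0 passed, while 16 (84.2%) had a fold change below 0, against 49.2% of all tested genes. Their median log2 fold change was -0.12. These genes answer to 1 pathway and were measured in the same 6 libraries, so their signs are not independent. The shift of the list as a set was not tested. The count below 0 ran from 13 without labelled replicate 2 to 17 in fits that left out another library. EPHA2, a receptor gene induced by ERK signalling, had the highest mean at 837 TPM and measured 851 ± 46.4 CPM in control and 811 ± 44.4 CPM in labelled libraries (SD, n = 3 each). FOSL1, a subunit of AP-1 named after its values were seen, averaged 794 TPM and lay above EPHA2 in 3 of 6 libraries, so these neighbours do not differ beyond their spread. PHLDA1 had the lowest p and measured 215, 220 and 176 CPM in control and 148, 166 and 173 CPM in labelled replicates 1, 2 and 3. Its groups did not overlap, and its log2 fold change was -0.33 (SE 0.107, unadjusted p = 0.0113 and adjusted p = 0.999, edgeR). Labelled replicate 2, the library with the lowest AREG, held the lowest value of 8 of the 19 genes (42.1%), where it held that of 16.4% of all tested genes. Labelled replicate 1, with the next-lowest AREG (25.9 CPM), and control replicate 3, with AREG at 39.4 CPM, held the lowest value of 4 genes each. The 8 genes included DUSP6 and SPRY2, both ERK pathway inhibitors, but not SPRED1 or DUSP4 of the same list. DUSP6 measured 166, 161 and 206 CPM in control and 151, 115 and 202 CPM in labelled replicates 1, 2 and 3. SPRY2 measured 93, 120 and 93.7 CPM in control and 92.8, 65.7 and 97 CPM in labelled replicates. SPRED1 measured 183, 158 and 152 CPM in control and 129, 174 and 150 CPM in labelled replicates 1, 2 and 3. For DUSP4 the values were 547, 517 and 437 CPM in control and 440, 461 and 481 CPM in labelled replicates. DUSP6, SPRY2, SPRED1 and DUSP4 were named after their values were seen. The part of labelled replicate 2 in the AREG values was not tested beyond the fits that leave it out.

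**Figure D5:**
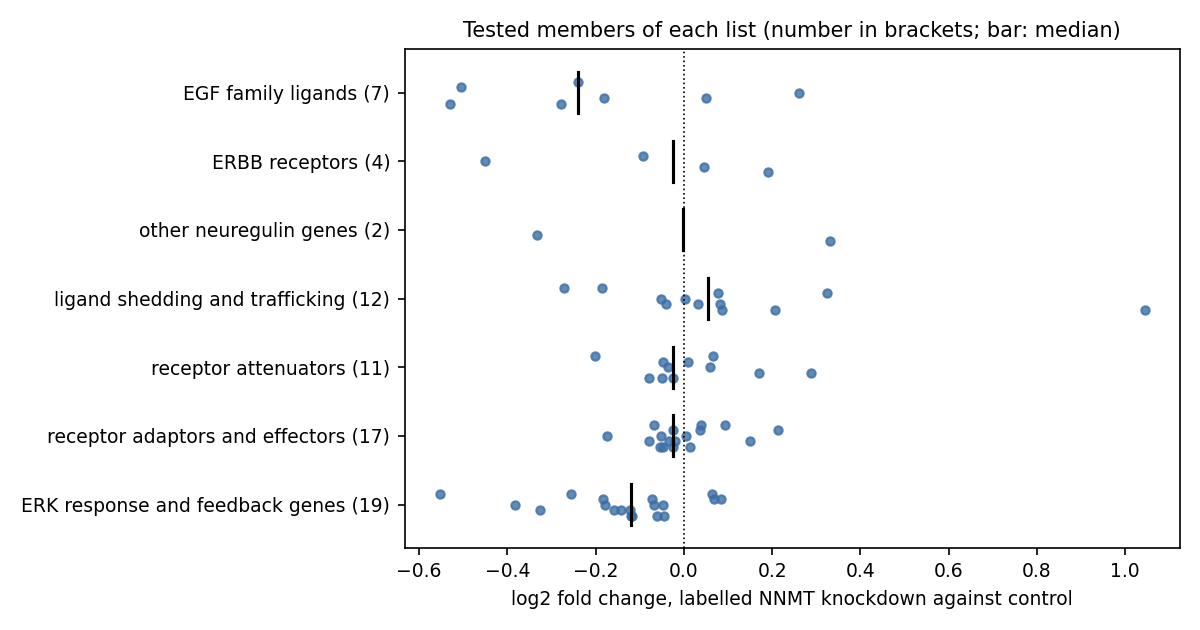
Fitted log2 fold change of labelled NNMT knockdown against control for each tested member of 7 gene lists, with the number tested in brackets and a bar at the median. The ERK response list has 16 of 19 points below 0, and the point farthest right is TIMP3, at 1.04 from 46 reads in all.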

How the data were processed

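The authors deposited raw read counts per gene for 6 libraries. Per the file headers, they were made with featureCounts 2.0.6 on hg38 with GENCODE 44, keeping pairs with both mates aligned and dropping chimeric pairs, with no strand option and with mates not combined into fragments. Of the aligner nothing is stated there. Among genes with 2 to 10 reads, 73.4% to 76.7% of counts were even. Gene lengths are the merged exon bases of the deposited table.

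The whole table was fitted with edgeR 4.0.16 in R 4.3.3 (filterByExpr defaults, 20250 genes, TMM, robust quasi-likelihood test, a model of group only), and p-values were adjusted by Benjamini-Hochberg over all tested genes. Each SE is the fold change divided by the root of its F. CPM and TPM were computed here. The test was checked on simulated data. Named genes were all members, NNMT, the ERBB receptors, the most abundant and lowest-p member of each other pathway list, and the 3 genes most like each member of at least 5 CPM; exceptions are marked, and 1 gene that the rule names is not reported here. Members and lists were chosen with earlier results of these data known. Promoters came from RefSeq.

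Alternatives were other scalings and filters, DESeq2 1.42.0, limma-voom (limma 3.58.1), a block for the replicate number, halved counts, non-robust dispersion and leaving out each library.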

Additional observations from a re-analysis of the deposited data

How the results depend on the processing

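No ligand was called under any of the 15 alternatives. Among all tested genes 0 were called by edgeR's quasi-likelihood test (817 had an unadjusted p under 0.05), 72 without a filter on low counts, 8 by DESeq2, and 0 to 1 when a library was left out, the 1 without control replicate 3; the cause was not tested. AREG, HBEGF, TGFA and BTC kept their direction in all 15. Changes of direction came only when a library was left out: without control replicate 3, EPGN turned to 0.26; without labelled knockdown replicate 1, EPGN was 0.08, EGF 0.15 and EREG -0.11; without labelled knockdown replicate 3, EREG was -0.0186 (log2 fold changes). With the replicate number as a block, 0 genes and 0 ligands were called. Deviations from group means correlated at 0.0545, -0.0705 and 0.18 between libraries numbered 1, 2 and 3. The value for number 3 was the highest between any control and any labelled library. The libraries numbered 3 also had the lowest chi-square per gene of all pairs (11.97). For numbers 1 and 2 no pairing was seen, and control replicate 1 correlated best with labelled replicate 2 (0.13). Whether the numbers mark pairs was not tested further. Leaving out 1 library moved the log2 fold change from -0.11 to 0.25 for EREG, -0.71 to 0.15 for EGF, -0.51 to 0.26 for EPGN, -0.98 to -0.23 for AREG, -0.75 to -0.0156 for BTC, -0.69 to -0.17 for TGFA and 0.15 to 0.34 for HBEGF. NRG1 had too few reads for a fold change. EREG, EGF, EPGN and TGFA had 21 to 240 reads a library. The fits of the ERK response list without each library were chosen after seeing the data.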
